A study of Homo sapiens with 12 samples.

Results

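CTSH, CTSK and CTSL are the genes of cathepsins H, K and L, and they were followed here through 4 groups of HCT-116 cells, an established human colorectal carcinoma cell line. The 3 genes were chosen by name, with the group means below already known, from the 770 genes of a NanoString nCounter panel, which counts barcoded probes on single transcripts without amplification. The panel measured 4 cathepsin genes in all, and the fourth, CTSG, encodes a serine protease of neutrophils.

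The study asks whether the marine sponge product heteronemin, a sesterterpenoid, and tetrac, a deaminated analogue of the thyroid hormone thyroxine, act against proliferation by way of the EGF receptor. The groups were cells labelled only as Control, cells with heteronemin, cells with tetrac, and cells with both. Treatment lasted 24 h, and each group had 3 samples. All groups share the 1 cell line; the labels used here give no dose and no vehicle, and do not say whether samples came from separate cultures. Only group means, fold changes and p-values were analysed, so no SD or interval between samples can be stated for any value below, and the depth per sample is unknown.

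Cathepsins H, K and L are cysteine proteases related to papain, made as inactive precursors and activated in the acid lumen of lysosomes. Cathepsin H trims amino acids from the ends of proteins, cathepsin K cuts triple-helical collagen and is best known from bone-resorbing osteoclasts, and cathepsin L is a broad endopeptidase that also cuts matrix and elastin. Tumour cells can release such cathepsins, which then act on matrix and adhesion proteins outside the cell. The panel measures transcripts, not the precursors, the active enzymes or their release.

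The promoters of CTSH and CTSL are shown first, as the members for which a promoter sequence was available. Any relation of their letters to the changes below was not tested. The sequences are from RefSeq on GRCh38.p14 and cover the 250 bases before the annotated start, read along the gene's own strand; 2 of the 3 members had an entry. Capitals mark matches, on either strand, to a GC box (GGGCGG) or to a CCAAT box (CCAAT).
CTSH, chr15:78945047-78945296, minus strand: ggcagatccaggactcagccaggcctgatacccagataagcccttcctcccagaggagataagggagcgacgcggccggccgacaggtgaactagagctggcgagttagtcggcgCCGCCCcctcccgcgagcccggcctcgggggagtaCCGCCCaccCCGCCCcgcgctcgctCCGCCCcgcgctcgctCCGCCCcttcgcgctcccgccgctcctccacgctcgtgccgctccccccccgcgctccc
CTSL, chr9:87725869-87726118, plus strand: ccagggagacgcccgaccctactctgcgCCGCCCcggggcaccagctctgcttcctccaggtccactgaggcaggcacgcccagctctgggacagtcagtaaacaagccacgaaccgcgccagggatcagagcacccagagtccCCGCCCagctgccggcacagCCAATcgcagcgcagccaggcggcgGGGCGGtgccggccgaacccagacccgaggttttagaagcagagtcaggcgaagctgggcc

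The CTSH window held 5 GC box matches and the CTSL window 3, a motif present in 42.6% of 35116 promoter windows of the same length. The CTSL window also held 1 CCAAT box, from base 86 to base 82 before the start; 32% of all windows had one, and the CTSH window had 0. The AP-1 motif TGACTCA, found in 4.20% of windows, and the E-box CACGTG of lysosomal genes, found in 6.34%, had 0 matches in both. No match overlapped another. GC content was 74.4% for CTSH and 69.2% for CTSL, against a median of 58.0% over all windows. A match is a run of letters, and nothing about the binding of a factor was measured.

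CTSH, listed in the tables under NM_148979.2, was the member that fell. The authors' mean of normalized counts was 315.5 in control, 260.4 after tetrac, 152.2 after the combination and 142.5 after heteronemin. Both groups that received heteronemin thus lay far below the 2 that did not, and the lowest mean was still 4.32 times the lowest value in the tables, 33. Against control, CTSH was 2.21-fold lower after heteronemin (p = 0.02), 2.07-fold lower after the combination (p = 0.01) and 1.21-fold lower after tetrac (p = 0.28) in the authors' deposited tables, 1 table for each treatment. A gene is called changed here at the authors' unadjusted p under 0.05, so the first 2 differences were called and the one after tetrac was not.

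Among all genes with a p-value, the log2 ratio of CTSH was the 3rd lowest of 704 after heteronemin, at -1.15. It was the 5th lowest of 686 after the combination, at -1.05, and the 8th lowest of 714 after tetrac, at -0.28. Ratios on this panel varied with a gene's level, so each member was also set beside the 51 other genes nearest to it in mean level over the 4 groups. For CTSH these had a median log2 ratio of -0.09 with heteronemin, -0.06 with both compounds and -0.05 with tetrac. In each of the 3 comparisons, 0 of the 51 had a lower ratio than CTSH, though after tetrac the lowest of them was at -0.27. With the 51 genes nearest in control mean instead, 2 lay below CTSH after tetrac and 0 in the other comparisons.

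CTSL, listed under NM_001912.4, went the other way. Its authors' mean was 265.4 after tetrac, 294.4 in control, 427.0 after heteronemin and 562.9 after the combination. Again the groups with heteronemin stood apart from those without it, here as the higher pair, and the combination gave the highest mean. In the authors' deposited table, CTSL was 1.91-fold higher after the combination, at p = 0.01, and so passed the threshold. After heteronemin alone it was 1.45-fold higher with a printed p of 0.05, which stands for any p from 0.045 to 0.055, so whether it passed cannot be read from the authors' deposited table. Tetrac alone left it 1.11-fold lower, at p = 0.49 in the authors' deposited table, and it was not called.

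The ratio of CTSL after the combination, 0.94 on the log2 scale, was the 27th highest of 686. Genes of like level had a median of -0.09 in that comparison, and 50 of the 51 nearest lay below CTSL. After heteronemin alone the log2 ratio of CTSL was 0.54, the 270th highest of 704, while its neighbours in level had a median of -0.21 and 49 of 51 lay below it. Of the 269 genes with a higher ratio than CTSL after heteronemin, 243 had a mean level under 100, which 348 of the 704 tested genes had. After tetrac, CTSL lay at -0.15 and the neighbours at a median of -0.10.

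CTSK, listed under NM_000396.2, was the member nearest to the lowest value in the tables. Its authors' mean was 78.8 in control, 91.0 after tetrac, 103.8 after the combination and 129.8 after heteronemin. The control mean was 2.39 times that lowest value, and CTSK lay above it in every group. All 3 treated means were above the control mean, that of heteronemin the farthest. CTSK rose 1.65-fold after heteronemin, at p = 0.03 in the authors' deposited table. It was 1.32-fold higher after the combination (p = 0.16) and 1.15-fold higher after tetrac (p = 0.47) in the authors' deposited tables, and neither was called.

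The log2 ratio of CTSK after heteronemin, 0.72, was the 197th highest of 704, and the 51 genes nearest in level had a median of 0.44, with 12 of them above CTSK. After the combination CTSK lay at 0.40 against a median of 0.16 for those neighbours, and 16 of the 51 lay above it. After tetrac it lay at 0.21 against 0.11, with 21 of 51 above.

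**Figure D1:**
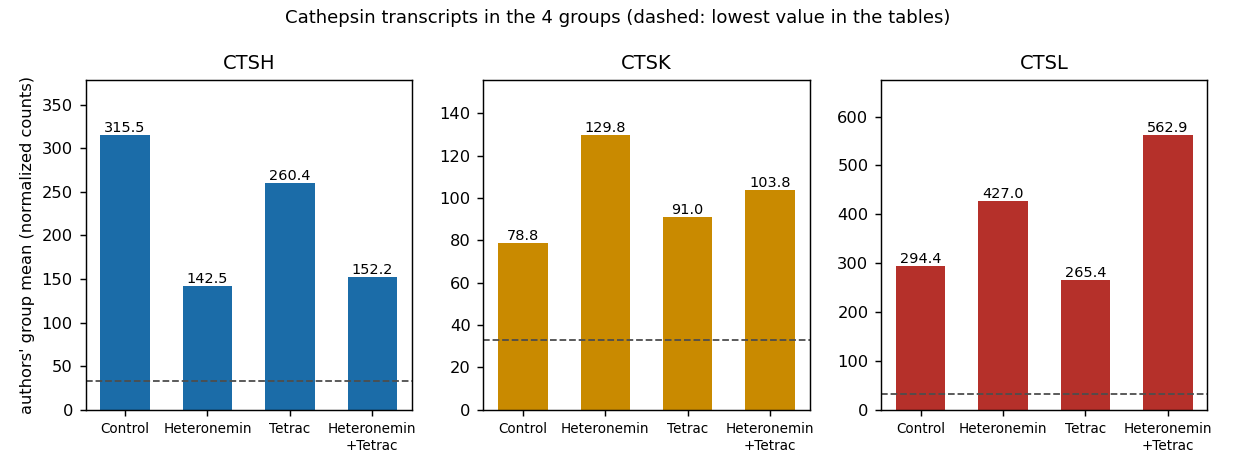
Bars give the authors' group mean of normalized counts (y axis, from 0, with its own scale for each gene) of CTSH, CTSK and CTSL in the 4 groups; the dashed line is the lowest value in the tables, 33, and no error bars are drawn because values per sample were not analysed. CTSH is lowest and CTSK highest after heteronemin alone, at 142.5 and 129.8, while CTSL is highest after the combination, at 562.9.

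Calls among the members are given with the share of genes called in each table. After heteronemin, 1 of 3 members was called higher and 1 lower, where 27.1% of 704 tested genes were called, 11.2% higher and 15.9% lower. After the combination, 1 was called higher and 1 lower, where 22.3% of 686 were called, 8.16% higher and 14.1% lower. After tetrac, 0 members were called, where 1.26% of 714 genes were, 0.280% higher and 0.980% lower. The members were chosen on these group means, so the counts describe them and support nothing further. With Benjamini-Hochberg adjustment over all genes of a table, the smallest adjusted p of any member was 0.0754, for CTSH and CTSL after the combination, from the p-values of the authors' deposited table, and 0 of the 4 calls held.

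Scaling bears on these ratios because the panel sum of the authors' means was 333810 in control, 280484 with heteronemin, 306898 with tetrac and 297671 with both. Dividing by the panel sum moves the log2 ratios of all genes up by 0.25, 0.12 and 0.17 in that order. CTSH then lay at -0.90 after heteronemin and -0.89 after the combination, CTSK at 0.97 after heteronemin and CTSL at 1.10 after the combination. None of the 9 ratios of the members to control changed sign under it. Over the whole table after heteronemin, the called genes were 79 higher and 112 lower as deposited, and 94 higher and 97 lower under the panel sum.

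**Figure D2:**
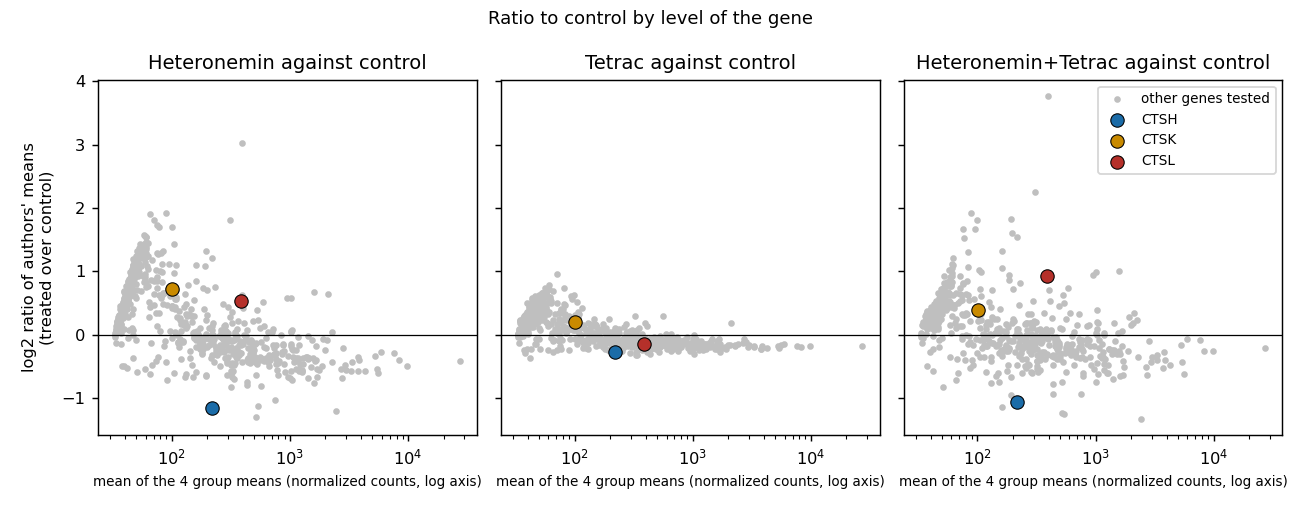
Each point is a gene with a p-value in the authors' deposited table; the x axis is the mean of its 4 group means (normalized counts, log axis) and the y axis the log2 of treated over control means. CTSH lies at the lower edge of genes of its level in all 3 panels, CTSL lies above nearly all of its neighbours in the panels with heteronemin, and CTSK at 0.72 after heteronemin sits among low-level genes whose median ratio was 0.44.

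The quotient of 2 genes within a group is untouched by any scaling of that group, so it shows how the balance between the members changed; probes differ in efficiency, and only the change of a quotient can be read. CTSL over CTSH was 0.933 in control, 1.02 after tetrac, 3.0 after heteronemin and 3.70 after the combination. That is 3.21-fold above control after heteronemin, 3.96-fold above it after the combination and 1.09-fold above it after tetrac. CTSK over CTSH was 0.250 in control, 0.349 after tetrac, 0.682 after the combination and 0.911 after heteronemin, so the balance between these 2 was shifted most by heteronemin alone, 3.65-fold. CTSL over CTSK moved less, from 3.73 in control to 2.92 after tetrac, 3.29 after heteronemin and 5.42 after the combination. A quotient does not take off the variation of ratios with a gene's level. After heteronemin the 51 genes nearest in level had a median log2 ratio of 0.44 for CTSK, -0.09 for CTSH and -0.21 for CTSL. No test exists for these quotients, since each is made from 2 group means.

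The 3 members also differed in what tetrac added to heteronemin, which the tables do not test. CTSL was 1.32-fold higher in the combination than after heteronemin alone, the 12th highest such ratio among the 707 genes above the lowest value in either group. CTSK was 1.25-fold lower in the combination than after heteronemin, the 210th lowest of those genes, and CTSH was 1.07-fold higher. None of the 3 reached 1.5-fold in this comparison, where 0.283% of those 707 genes were higher by that fold and 10.5% lower.

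Heteronemin against tetrac, and the combination against tetrac, separated the members more widely. After heteronemin CTSH was 1.83-fold lower than after tetrac, the 5th lowest of 716 genes, where 1.82% were lower by 1.5-fold or more. CTSL was 1.61-fold higher in that comparison, past the 1.5-fold line that 15.6% of genes passed, and CTSK was 1.43-fold higher. In the combination CTSH was 1.71-fold lower than after tetrac and CTSL 2.12-fold higher, the 15th highest of 713 genes, where 1.82% were lower and 5.19% higher by 1.5-fold. CTSK was 1.14-fold higher there. All 3 comparisons with control share the control samples. Without values per sample, it cannot be said which neighbours in the order of groups differ by more than their spread.

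Adding the log2 ratios of the single compounds gives a simple yardstick for the combination. For CTSL the sum was 0.39 and the combination gave 0.94, a departure of 0.55; among the 482 genes above the lowest value in every group, 11 departed further upward, and the median departure was 0.09. For CTSK the sum was 0.93 and the combination 0.40, a departure of -0.53, with 74 genes further downward. For CTSH the sum was -1.42 and the combination -1.05, a departure of 0.37, with 50 genes further upward. The departure has no test here. With means divided by the panel sum it was 0.34 for CTSL, -0.74 for CTSK and 0.17 for CTSH.

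**Figure D3:**
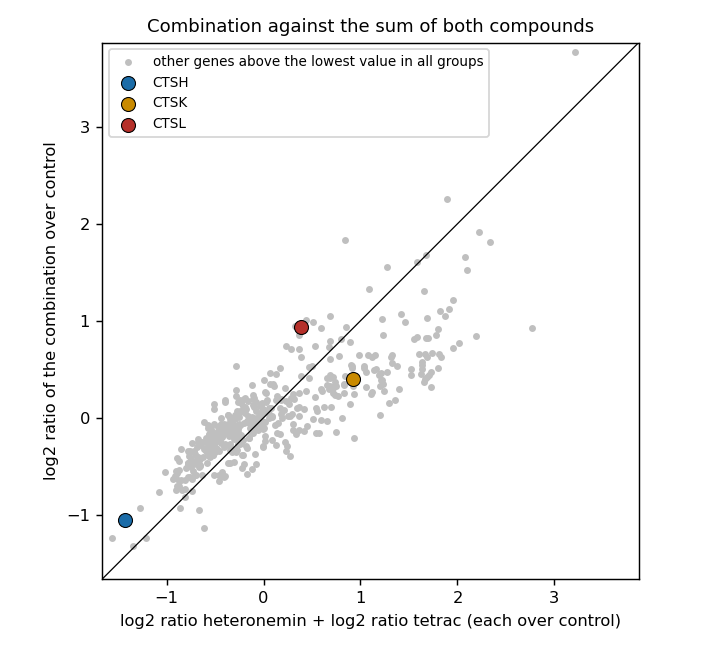
Points are the 482 genes above the lowest value in all 4 groups; the x axis is the sum of the log2 ratios of heteronemin and of tetrac over control, the y axis the log2 ratio of the combination, and the line marks equality. CTSL lies 0.55 above the line and CTSH 0.37 above it, while CTSK lies 0.53 below it.

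Genes with a like pattern were sought over the 4 group means, each gene centred on its own log2 mean, by the root mean square difference from the member among 481 candidates. They were picked as the nearest, so their closeness is a description. Nearest to CTSH were CAV1, the coat protein of caveolae (0.054), the Notch ligand JAG1 (0.088) and ID2, an inhibitor of basic helix-loop-helix factors (0.137). CAV1 had authors' means of 1048.3 in control, 881.9 after tetrac, 549.4 after the combination and 514.1 after heteronemin, the same order of groups as CTSH.

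Nearest to CTSL were the stress cytokine GDF15 (0.028), the tryptophanyl-tRNA synthetase WARS (0.056) and NDRG1, a gene induced by hypoxia (0.060). GDF15 had authors' means of 711.5 after tetrac, 747.7 in control, 1118.8 after heteronemin and 1479.4 after the combination, again in the order of CTSL. Nearest to CTSK were FCF1 (0.031), the calcineurin-like protein CHP1 (0.041) and the glycolytic regulator PFKFB1 (0.042). FCF1 is 1 of the panel's 30 housekeeping genes, with authors' means of 1694.9 in control and 2636.7 after heteronemin, 1.56-fold higher, at p = 0.03 in the authors' deposited table. The members themselves were farther apart: the root mean square difference was 0.335 between CTSK and CTSL, 0.743 between CTSH and CTSK, and 0.893 between CTSH and CTSL.

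**Figure D4:**
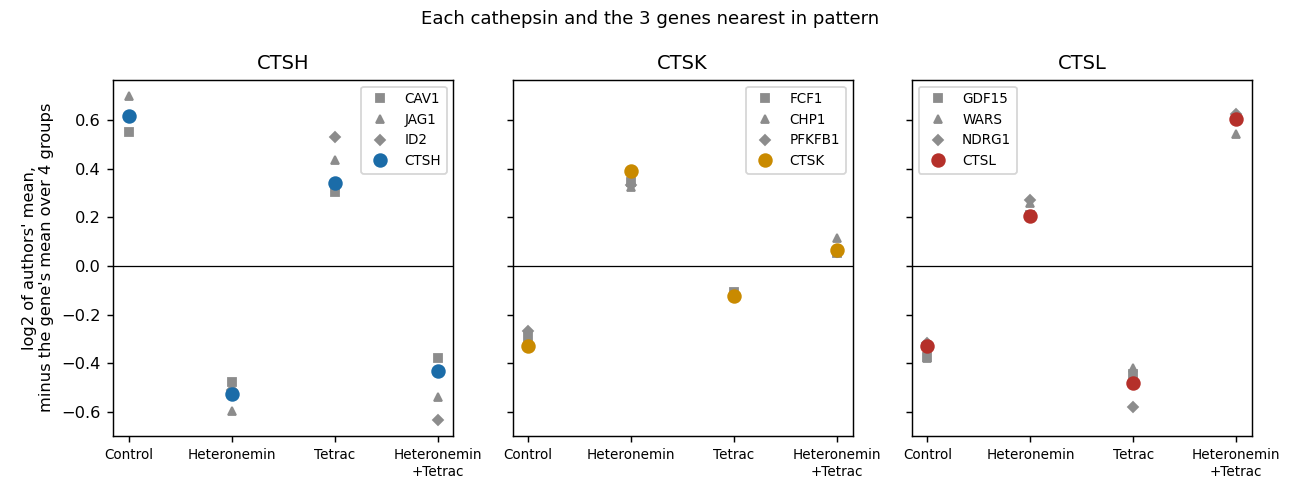
The y axis gives the log2 of the authors' mean minus the gene's own mean over the 4 groups, for each cathepsin (coloured) and the 3 genes nearest to it in pattern (grey); points at 1 x position belong to 1 group. The farthest of the 9 neighbours is ID2, at a root mean square difference of 0.137 from CTSH.

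Regulators and relatives of the members were scarce on the panel. Of 12 other cathepsins listed, CTSG alone was measured, at the lowest value of 33 in control and at 46.4 after heteronemin, 42.4 after tetrac and 36.6 under the combination, and it was not called. Of 17 inhibitors of cathepsins and related proteases listed, the cystatin CST7 alone was measured, at 33 in control and 46.8 after heteronemin, and it was not called either. Of 33 genes of lysosomes and endocytic routes, 2 were measured, and CAV1 fell with CTSH in the heteronemin and combination tables, while HPSE, the heparan sulfate-cutting heparanase, had log2 ratios of 0.12 and -0.25. Members of these lists, and of those below, were written down with earlier results of these data known.

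Of 18 metalloproteases measured, 13 were at the lowest value in control, as no cathepsin of the 3 was. After heteronemin 1 of 13 tested rose, the sheddase ADAM17 (1.32-fold), and 2 fell, the membrane collagenase MMP14 (1.52-fold lower) and ADAM9 (1.40-fold lower), where 27.1% of all tested genes were called in either direction. The list's median log2 ratio was 0.61 against 0.23 over all tested genes. CTSH was 2.21-fold lower in the same comparison. Under the combination ADAM17 rose 1.55-fold, beside 1.91-fold for CTSL, and MMP14 fell 1.27-fold. No other of the 13 tested was called, where 22.3% of all tested genes were, and the median was 0.33 against 0.17. After tetrac 0 of 14 were called, where 1.26% of all tested genes were. Genes at the lowest value in control cannot fall below it, which bears on these medians.

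Of 9 serine proteases and receptors measured, 4 were at the lowest value in control and 8 were tested in each table. After heteronemin PRSS8, the membrane protease prostasin, rose 2.0-fold from the authors' mean of 58.3, and its partner ST14, matriptase, fell 1.55-fold. No other of the 8 was called, where 27.1% of all tested genes were, and the list median was 0.51 against 0.23 over all tested genes. Under the combination the urokinase receptor PLAUR (1.44-fold) and tissue factor F3 (1.38-fold) rose and ST14 fell 1.56-fold. Of all tested genes 22.3% were called there, and the list median was 0.39 against 0.17. After tetrac the urokinase gene PLAU fell 1.19-fold, where 1.26% of all tested genes were called, with a median of 0.13 against 0.07. Of 9 inhibitors of metalloproteases and serine proteases, 7 were tested. After heteronemin 1 was called higher and 1 lower, where 27.1% of all tested genes were called. The lower one was TIMP1, an inhibitor of metalloproteases, which fell 1.45-fold. Under the combination 1 inhibitor was called higher and 0 lower, where 22.3% of all tested genes were called. The inhibitors' median log2 ratios were -0.07 with heteronemin, -0.05 with tetrac and -0.01 with both, against 0.23, 0.07 and 0.17 over all tested genes. After tetrac 0 of the inhibitors were called.

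Matrix and junction proteins that cathepsins can cut were called in both directions. After heteronemin 7 of 24 tested rose and 2 fell, led by SPP1 (3.77-fold) and the laminin chain LAMA3 (2.51-fold), both from near the lowest value; over all tested genes 11.2% were called higher and 15.9% lower. COL18A1 (1.24-fold lower) and CD44 (1.41-fold lower) had a printed p of 0.05 there in the authors' deposited table and count as not called. The list's median log2 ratio was 0.35 against 0.23 over all tested genes. COL1A1, a chain of the collagen that cathepsin K cuts, rose 2.15-fold from the authors' mean of 67.2, beside the 1.65-fold rise of CTSK. Under the combination 5 of 21 rose and 3 fell, with LAMB3 at 3.57-fold and COL18A1 at 1.52-fold lower, where 8.16% and 14.1% of all tested genes were called higher and lower, and the median was 0.25 against 0.17. After tetrac 2 of 24 fell, OCLN (1.13-fold lower) and LAMA5 (1.10-fold lower), and 0 rose, with a median of 0.06 against 0.07. Of all tested genes 0.280% were called higher there and 0.980% lower.

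The label of an epithelial carcinoma line was checked against markers because CTSK and CTSG are known mainly from other cells. Of 10 epithelial markers measured, 0 were at the lowest value in any group. Their median authors' mean lay between 817.0 and 973.4 over the groups. In control they ranged from KRT7 at 34.1, near the lowest value, and GRHL2 at 92.8 to EPCAM at 1814.2. Of 11 genes that mark endothelial, blood or stromal cells, 7 were at the lowest value in control and the highest, CD34, was at 35.6. After heteronemin 1 of the 11 was at the lowest value and their median was 49.4, with CD34 highest at 84.7; after tetrac and the combination the medians were 41.4 and 41.6. These higher values after heteronemin go the same way as that of CTSK, and their part in its rise was not tested. Epithelial markers went both ways from control to heteronemin. KRT7 went from 34.1 to 83.7 and GRHL2 from 92.8 to 123.3, while EPCAM went from 1814.2 to 1402.5 and ST14 from 995.4 to 640.2. The epithelial median went from 973.4 to 817.0. Of all 770 genes, 279 were at the lowest value in control. After heteronemin 70 were, after tetrac 61 and after the combination 90. Of 6 osteoclast markers listed, 0 were measured.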

How the data were processed

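Groups of 3 samples of HCT-116 cells (control, heteronemin, tetrac, both; 24 h) were measured with the NanoString PanCancer Progression panel. Per the labels' protocols, total RNA was isolated with TRIzol. Per the series' design text, raw counts were normalized technically, with a positive control factor per sample, and biologically in nSolver 4.0. The authors deposited 3 tables of 770 genes (740 endogenous, 30 housekeeping) with a normalized signal, the mean of each group; the control column was identical in all 3. The authors deposited a score, the signed fold change, which equals the quotient of the 2 means to within 0.00511. A deposited p-value is printed to 2 decimals, so a p printed as 0 is any p below 0.005; it is empty where both means are at 33. For the test, the kind of mean and the origin of the value 33, no source used here gives an account.

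Log2 ratios of means, calls at the authors' unadjusted p under 0.05 and Benjamini-Hochberg adjustment over each table were computed with Python 3.11.15, numpy 2.4.6 and pandas 2.3.3, tested on simulated data (scipy 1.17.1); figures used matplotlib 3.10.9. The tables hold no samples, so no test of differences between treatments was made. Any p measures only the spread between samples, which may be technical. Named are the members, up to 4 called genes per list and comparison with the largest change (of which the text gives some, and 1 is not reported here), and the 3 genes nearest each member in pattern. The members and lists were chosen with earlier results of these data known. Symbols of all 3 members matched the reference table on GRCh38.p14; the accession of CTSH was not listed there. CTSL has close relatives and pseudogenes, and probe sequences were not analysed here. Alternatives changed the scaling, level correction, pseudocount, p-value rounding and filters.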

Additional observations from a re-analysis of the deposited data

How the results depend on the processing

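No paired analysis was possible because the tables used here hold group means and no values per sample; for the same reason no replicate could be left out. Of 90 alternative values for the members against control, 81 kept their direction and side of the threshold, and none changed direction. The scaling, level and pseudocount settings left the authors' p unchanged, so they could not change a call. The p-value settings left the ratio unchanged, so they could not change a direction. Much of this tally was therefore fixed in advance. The calls lost under Benjamini-Hochberg adjustment, from printed and from largest possible p-values, were those of CTSH after heteronemin (0.111 and 0.139) and after the combination (0.0754 and 0.113), CTSK after heteronemin (0.13 and 0.151) and CTSL after the combination (0.0754 and 0.113). The smallest p behind the printed one, 0.045, would call CTSL after heteronemin; this setting was added after seeing the data, as were the scalings of the departure from the sum and the 51 genes nearest in control mean, against which CTSK lay at 0.27 after heteronemin. Of 36 values without a test, 1 counted as moved. It was CTSK between heteronemin and tetrac, which crossed 1.5-fold at 0.64 on the log2 scale with the panel sum. For departures from the sum, only a change of sign or a shift of more than 1.5-fold counted as moved. By that rule the departure of CTSK did not count, though it went from -0.53 to -0.74 with the panel sum.

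Asking for 1.5-fold as well as the p-value left 95 genes called of 191 after heteronemin, 0 of 9 after tetrac and 69 of 153 after the combination. In the same way metalloproteases called went from 3 to 1 after heteronemin and from 2 to 1 after the combination, serine proteases and receptors from 1 to 0 after tetrac and from 3 to 1 after the combination, inhibitors from 2 to 0 after heteronemin, and matrix and junction proteins from 2 to 0 after tetrac and from 8 to 5 after the combination. With a mean level of 100 or more, serine proteases and receptors went from 2 to 1 after heteronemin, and matrix and junction proteins from 9 to 5 after heteronemin and from 8 to 5 after the combination. All these are smaller counts by construction.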
